A study of Rattus norvegicus with 6 samples.

Results

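The Slc25 genes encode the mitochondrial carrier family, the proteins that move metabolites, nucleotides, amino acids, cofactors and inorganic ions across the inner mitochondrial membrane. Members were all rows of the deposited table of 17273 genes whose symbol is Slc25a followed by a number, which gave 43 genes. Of these, 37 had enough counts to be tested, among 13747 tested genes in all, and 6 did not. Family members that carry other symbols (the uncoupling proteins Ucp1 and Ucp2 and the carrier homologs Mtch1 and Mtch2) are not counted as members and are described at the end. Slc25a6, Slc25a23, Slc25a31, Slc25a41, Slc25a52 and Slc25a53 had no row under these symbols and were not analysed here, so substrate classes may be incomplete.

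RNA was sequenced from nucleus pulposus cells, the cells of the soft core of the intervertebral disc, taken from wild-type male Sprague Dawley rats and kept in culture medium with fetal bovine serum. Per the labels, 3 control libraries came from cells with no treatment and 3 lactate libraries from cells exposed to lactate at 10 mM over 8 h. Neither the age of the rats nor the form of the lactate is in the labels. Nor do they say if a group's libraries are from different cultures or animals, so the p-values rest on a spread between libraries that may be technical. The comparison asks which carrier genes differ after lactate.

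A carrier is a short membrane protein built from a repeated module, and most carriers swap a substrate on one side of the inner membrane for another on the other side. Together they link the matrix, where the tricarboxylic acid cycle and ATP synthase work, with the cytosol: ADP and phosphate enter, ATP leaves, and pairs of carriers pass reducing power in and out as malate, aspartate, glutamate and oxoglutarate. Lactate taken up by a cell is oxidised to pyruvate in the cytosol with release of NADH, and the malate-aspartate shuttle is a known route by which those electrons reach the respiratory chain. Adult nucleus pulposus tissue is poorly supplied with blood and known for glycolytic metabolism and high lactate.

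Libraries held 30291357 to 38989574 counts. Against 15 markers of nucleus pulposus and cartilage, 13 of which were in the table, the cartilage proteoglycan Acan was the most abundant, at 2393 ± 159 CPM (a library's counts scaled to its TMM-adjusted total; SD, n = 3) in the control group and 2290 ± 183 CPM in the lactate group. The 13 together summed to 2535 to 2849 CPM in control and 2494 to 2822 CPM in lactate libraries, a sum that is nearly all Acan and rests on TMM scaling. The counts of Acan were 111164, 114506 and 119250 in control and 54584, 44847 and 65338 in lactate libraries. Of 11 tested markers 4 were called higher and 2 lower with TMM, and 2 higher and 4 lower with library totals. Of all tested genes 31.4% were called higher and 34.6% lower with TMM, and 12.5% and 61.8% with library totals. The notochordal markers Tbxt and Krt19 were nearly absent, with 12 and 9 counts over the control group and 0 over the lactate group. Col2a1 had 39 control and 55 lactate counts. Other markers of this list were present and moved in both directions with TMM. Cd24 had a mean of 29.2 CPM in control and 146 CPM in lactate libraries (called higher), and Pax1 235 and 128 CPM (called lower). Sox9 was at 5.88 and 16.1 CPM, Comp at 13.5 and 37.2 CPM and Ca12 at 0.226 and 0.682 CPM (all called higher). Foxa2 was at 1.63 and 0.412 CPM (called lower) and Krt8 at 7.04 and 5.57 CPM (not called). The summed level of 5 annulus and fibroblast markers, nearly all of it the collagen gene Col1a1, was 29581 to 35437 CPM in control and 100893 to 145445 CPM in lactate libraries. Of these 5, Col1a1 and Thy1 were called higher, Pdgfra and Mkx lower and Scx was not called, and the part of these cells in the results was not tested. Macrophage markers summed to at most 10.7 CPM, and endothelial and striated muscle markers to at most 0.235 and 0.136 CPM, in every library. These sums rest on 4 of 5 macrophage, 2 of 4 endothelial and 2 of 6 striated muscle markers, as the others had no row and could not be read. In bulk RNA, fewer cells of a type and less RNA per cell cannot be told apart.

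Carrier levels per length were led by a few genes. On the FPKM scale (the authors' counts per length of transcript and per library size, as deposited), 32 of 43 members averaged at least 1 FPKM in control libraries and 14 averaged at least 10. The 4 most abundant were Slc25a3, the phosphate carrier, Slc25a4 and Slc25a5, the ADP/ATP carriers, and Slc25a39, a mitochondrial importer of glutathione. Their mean control levels were 248 ± 41.0, 220.4 ± 19.4, 159 ± 21.0 and 126 ± 7.15 FPKM (SD, n = 3). The control libraries of Slc25a3 and Slc25a4 overlapped, while those of Slc25a4 and Slc25a5, and of Slc25a5 and Slc25a39, did not. Slc25a11, the oxoglutarate carrier of the malate-aspartate shuttle, came next at 53.7 ± 5.00 FPKM, followed by Slc25a1, the citrate carrier, at 29.4 ± 1.14, and Slc25a24, a calcium-regulated carrier of ATP-Mg, at 27.3 ± 3.28, the last pair with overlapping control libraries.

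**Figure D1:**
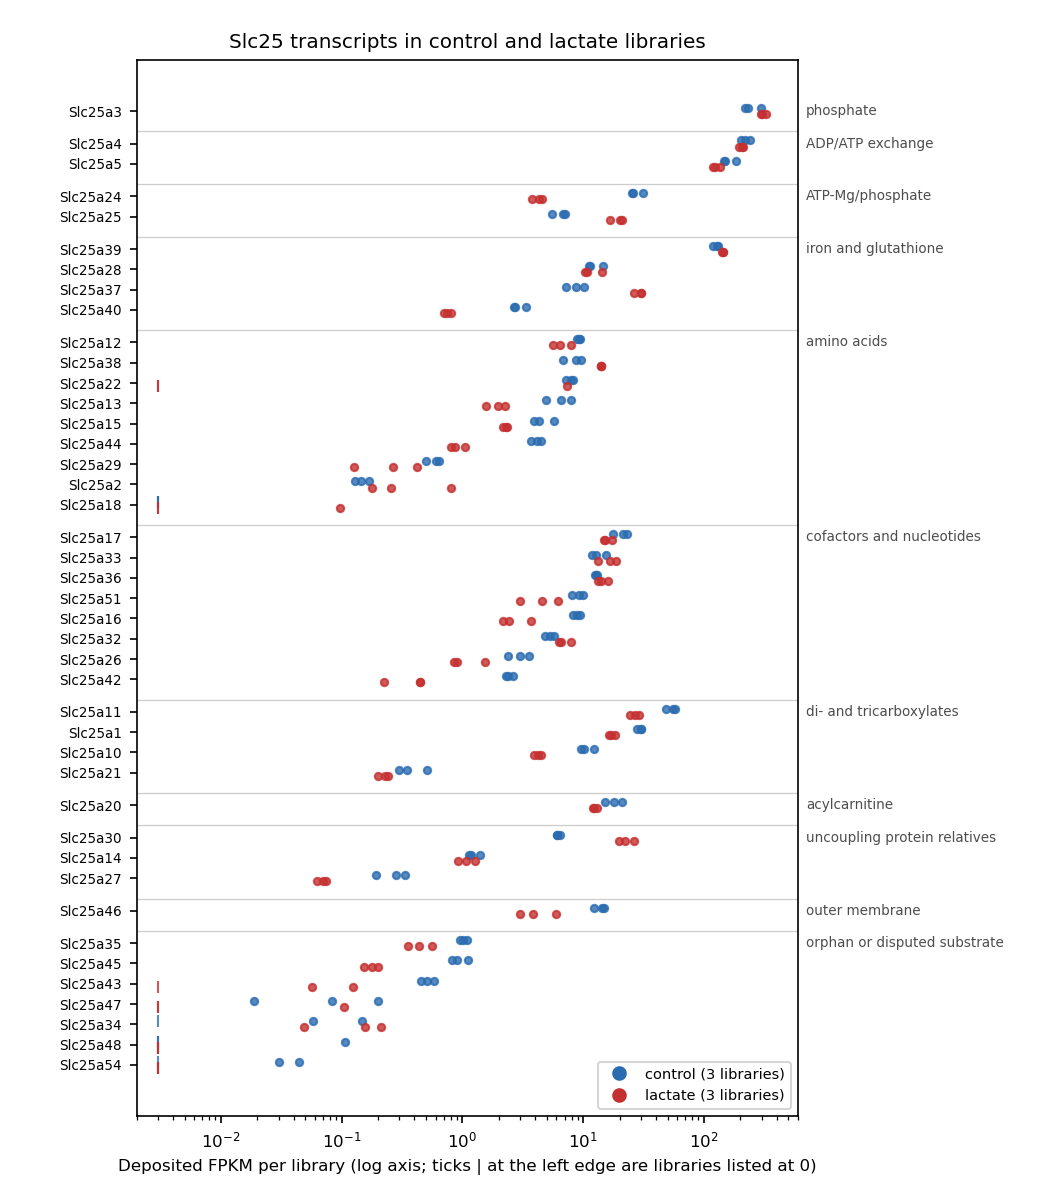
Deposited FPKM of Slc25 members (all but 1) in each of 3 control (blue) and 3 lactate (red) libraries, on a log axis, ordered by substrate class and by mean control level; libraries listed at 0 are ticks at the left edge, where ticks of 1 group lie on top of each other. Slc25a3, Slc25a4, Slc25a5 and Slc25a39 stand above 100 FPKM in every library, and the Slc25a24 and Slc25a25 levels change places between the groups.

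The 4 most abundant members held 70.5 ± 0.942% of the summed Slc25 FPKM in control libraries (SD, n = 3) and 75.8 ± 0.889% in lactate libraries. The groups did not overlap in this share (exact two-sided permutation test, p = 0.1, the smallest that 3 against 3 libraries allow). All 43 members together took 0.165 ± 0.0136% of the total in control libraries and 0.155 ± 0.00399% in lactate libraries, and the groups overlapped (exact two-sided permutation test, p = 0.2). With the 20 most abundant genes of the libraries left out of the total, the share was 0.204 ± 0.0161% and 0.226 ± 0.00127%, higher in lactate libraries without overlap. Of the summed FPKM of all genes the members took 0.231 ± 0.0176% and 0.201 ± 0.00294%, lower in lactate libraries without overlap. Each had p = 0.1 in the exact two-sided permutation test, so the direction depended on the measure. The 20 most abundant genes took 19.1 ± 0.709% of the total counts in control libraries and 31.5 ± 2.05% in lactate libraries.

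Members moved in both directions. With edgeR's quasi-likelihood test, TMM scaling and Benjamini-Hochberg adjustment over all tested genes, 15 of 37 tested members were called higher in lactate libraries, 10 lower and 12 were not called at an adjusted p under 0.05. Of all tested genes 31.4% were called higher and 34.6% lower, 66.0% in all, so the share of members called (25 of 37) was near the background. The median log2 fold change, lactate over control, was 0.09 over the members and −0.10 over all tested genes. The groups did not overlap in 28 of 37 members, against 72.2% of all tested genes. Counts of calls by substrate class below are to be read against these shares of all tested genes.

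How many members were higher or lower changed with the scaling. TMM takes the bulk of genes as level, while library totals give each library the same sum, and the median of all tested genes was −0.96 with library totals. With library totals 6 members were called higher and 21 lower, against 12.5% and 61.8% of all tested genes, and the members' median was −0.77. Of the 15 members called higher with TMM, 6 were still called higher with library totals (Slc25a30, Slc25a37, Slc25a25, Slc25a38, Slc25a32 and Slc25a3), and all 10 called lower stayed lower. Library totals move every fold change down by a similar amount, so a lower call could hardly be lost. The 10 kept calls are therefore no added support for the falls. Removing the trend of fold changes on transcript length gave 12 members higher and 12 lower, against 28.7% and 35.5% of all tested genes. Values below are CPM with TMM scaling and log2 fold changes of lactate over control with their standard error (SE), and the value with library totals is given where it loses the call or turns the direction. FPKM follow library totals, so the same gene can be higher in CPM and lower in FPKM.

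**Figure D2:**
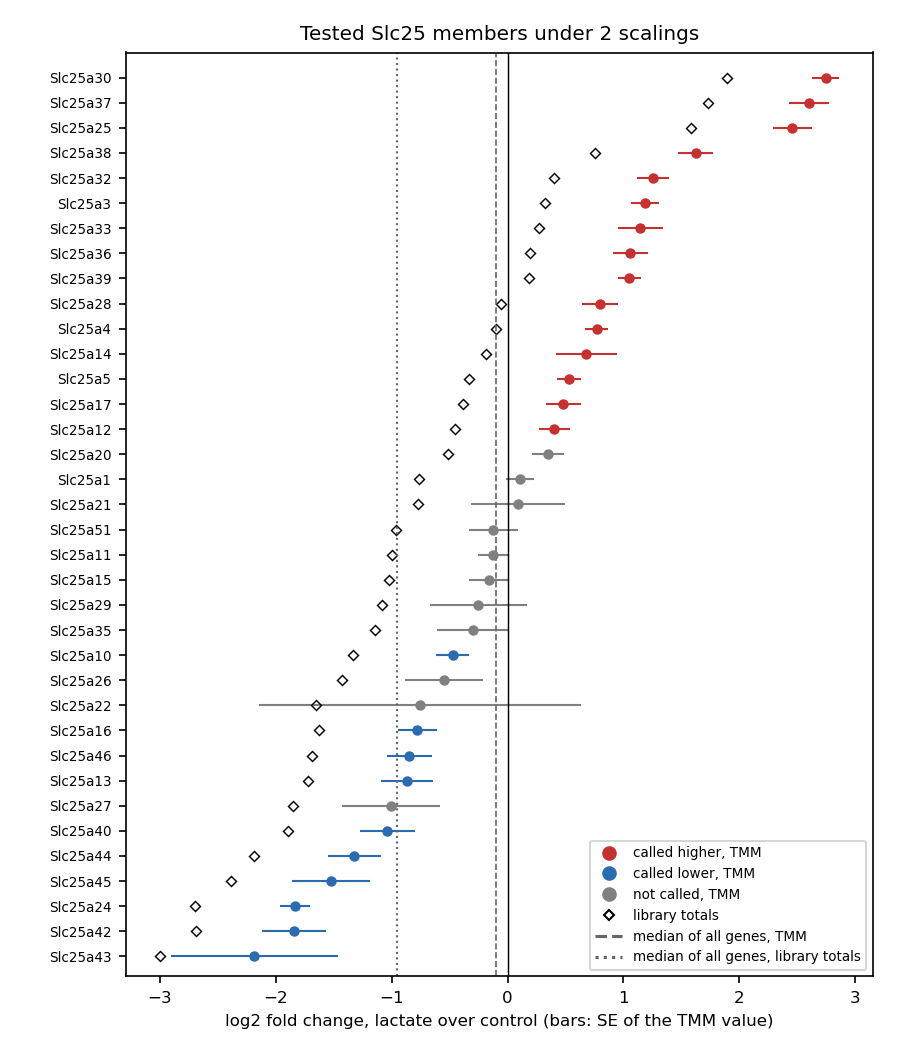
Log2 fold changes, lactate over control, of the tested Slc25 members (all but 1) with TMM scaling (filled points, bars are SE; red called higher, blue called lower, grey not called) and with library totals (open diamonds); the dashed and dotted lines are the medians of all tested genes with each scaling. The order of members is nearly the same under both scalings, and 6 red members and all 10 blue members keep their call with library totals. Library totals place the points lower by a similar amount, so the order and the blue calls could hardly change.

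The phosphate carrier and the ADP/ATP carriers, which supply ATP synthase with its substrates and export its product, were called higher with TMM. Slc25a3 was at 299, 227 and 237 CPM in control libraries 1, 2 and 3 and at 584, 594 and 558 CPM in lactate libraries 1, 2 and 3. Every lactate library was above every control library. It rose by 1.19 ± 0.12 on the log2 scale (edgeR adjusted p = 4e-05), and by 0.32 with library totals (adjusted p = 0.038).

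Slc25a4, the ADP/ATP carrier ANT1 that is typical of heart and skeletal muscle, was at 235, 203 and 212 CPM in control and 361, 395 and 351 CPM in lactate libraries. Slc25a5, the carrier ANT2 that is typical of proliferating cells, was at 174, 142 and 143 CPM in control and 222, 221 and 218 CPM in lactate libraries. Neither gene's groups overlapped. Slc25a4 changed by 0.77 ± 0.10 (edgeR adjusted p = 0.00014) and Slc25a5 by 0.53 ± 0.11 (adjusted p = 0.0021), but with library totals they were at −0.10 (not called, adjusted p = 0.38) and −0.33 (called lower, adjusted p = 0.029), so their direction depended on the scaling. With the length trend removed Slc25a5 was at 0.26 and not called (adjusted p = 0.058).

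Their ratio does not depend on the scaling between libraries. Slc25a4 made up 58.1 ± 1.21% of the summed FPKM (SD, n = 3) of Slc25a4 and Slc25a5 in control and 62.0 ± 1.35% in lactate libraries. The shift was small, and the groups did not overlap (exact two-sided permutation test on the log2 ratio, p = 0.1, adjusted p = 0.13 over 8 ratios). The RefSeq annotation of the rat assembly GRCr8 lists 9 pseudogenes of Slc25a5, 8 of Slc25a39, 2 of Slc25a3 and 1 of Slc25a4, and reads could be split between a gene and such copies, so these levels are uncertain. In all, 11 of 43 members have a listed pseudogene, among them Slc25a13, Slc25a15, Slc25a21, Slc25a33, Slc25a36 and Slc25a38 with 1 each. Only pseudogenes named after the member were counted, so copies under other symbols are missed and these numbers are minimum counts.

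The calcium-regulated ATP-Mg/phosphate carriers among the members, Slc25a25 and Slc25a24, moved in opposite directions. These carriers exchange ATP-Mg for phosphate and so set the total adenine nucleotide in the matrix, and they carry calcium-binding EF-hands on the cytosolic side. Slc25a25 (SCaMC-2) was at 16.8, 13.3 and 16.0 CPM in control and 90.3, 96.1 and 67.4 CPM in lactate libraries. All 3 lactate libraries were far above the controls. It rose by 2.46 ± 0.16 on the log2 scale, 5.49-fold (edgeR adjusted p = 5.5e-06), and by 1.58 with library totals.

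Slc25a24 (SCaMC-1) was at 83.2, 69.0 and 69.4 CPM in control and 23.1, 19.6 and 19.5 CPM in lactate libraries. All 3 lactate libraries were far below the controls. It fell by 1.83 ± 0.13 on the log2 scale (edgeR adjusted p = 6.3e-06) and was at −2.70 with library totals. Both calls held in every setting tried, each library left out in turn included.

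As a result the more abundant gene of this pair changed. Slc25a25 made up 19.1 ± 1.46% of the summed FPKM (SD, n = 3) of Slc25a24 and Slc25a25 in control and 82.0 ± 2.57% in lactate libraries. The log2 ratio of Slc25a25 to Slc25a24 was −2.13, −2.20 and −1.94 in control libraries 1, 2 and 3 and 2.15, 2.47 and 1.97 in lactate libraries 1, 2 and 3. This was a 19.5-fold change of the ratio, the largest of the 8 ratios computed (exact two-sided permutation test, p = 0.1, adjusted p = 0.13).

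The 250 bases before the annotated start of this pair of genes, and of Slc25a33, the other member whose window holds the same cAMP response element, are shown because the pair had the largest opposite move within a class. They are RefSeq sequences of the rat assembly GRCr8, written in the sense of the gene. Capitals mark matches, on either strand, to the 8 motifs searched.
Slc25a25, chr3:36116582-36116831, minus strand: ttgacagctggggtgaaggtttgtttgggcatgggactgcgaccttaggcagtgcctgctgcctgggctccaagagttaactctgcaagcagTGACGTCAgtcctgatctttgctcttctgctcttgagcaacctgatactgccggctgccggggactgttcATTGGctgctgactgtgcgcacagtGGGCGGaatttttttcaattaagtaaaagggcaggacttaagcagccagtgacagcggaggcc
Slc25a24, chr2:199449175-199449424, plus strand: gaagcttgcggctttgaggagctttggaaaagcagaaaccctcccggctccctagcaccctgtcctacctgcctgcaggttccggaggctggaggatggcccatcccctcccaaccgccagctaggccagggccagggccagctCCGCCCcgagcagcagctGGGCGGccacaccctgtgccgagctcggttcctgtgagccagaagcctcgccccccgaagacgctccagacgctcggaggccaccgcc
Slc25a33, chr5:165502974-165503223, minus strand: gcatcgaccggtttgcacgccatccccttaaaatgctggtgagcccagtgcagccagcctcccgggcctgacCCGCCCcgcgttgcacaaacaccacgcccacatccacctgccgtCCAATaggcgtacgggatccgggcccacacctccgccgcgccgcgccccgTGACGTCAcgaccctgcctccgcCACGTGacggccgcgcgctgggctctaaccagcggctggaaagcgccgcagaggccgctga

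In the Slc25a25 window the capitals are the full cAMP response element (CRE) TGACGTCA, starting 158 bases before the start, a CCAAT box on the other strand at 88 bases and a GC box (GGGCGG) at 63. The Slc25a24 window holds GC boxes at 106 and 88 bases and no other motif searched. In the Slc25a33 window a GC box lies at 178 bases, a CCAAT box at 134, the CRE at 84 and the E-box CACGTG at 61. Windows were found for 36 members, 30 of them tested. These members had 38 windows, and matches are counted by member but the background by window, so the measures are not quite alike. The CRE was found in 2 of these 36 members and in 1.59% of all 33469 windows of the same length, the E-box in 4 members and 5.59%, the GC box in 22 members and 30.5%, the CCAAT box in 20 members and 34.0%, and the TATA box TATAAA in 2 members and 12.9%. The amino acid response core TGATGNAA (3.40% of all windows), the NRF1 motif (3.75%) and the endoplasmic reticulum stress element (0.0657%), which holds a CCAAT box, were in none of the member windows. The median GC content of the windows was 58.2% in members and 51.2% in all, and a match or its absence is only a description of these letters.

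Among the carriers of iron and glutathione 3 were called higher and 1 lower. Slc25a37 (mitoferrin-1), which brings iron into the matrix for heme and iron-sulfur clusters, was at 10.3, 12.5 and 8.68 CPM in control and 67.6, 70.6 and 52.8 CPM in lactate libraries. The groups lay far apart. It rose by 2.60 ± 0.17 on the log2 scale, 6.06-fold (edgeR adjusted p = 5.5e-06; 1.73 with library totals).

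Its paralog Slc25a28 (mitoferrin-2), the form of most non-erythroid tissues, was at 12.6, 13.3 and 16.8 CPM in control and 22.4, 24.2 and 27.5 CPM in lactate libraries. The lactate libraries were higher without overlap. It changed by 0.80 ± 0.16 (edgeR adjusted p = 0.0019), but with library totals it was at −0.06 and no longer called. Slc25a37 made up 41.5 ± 7.50% of the summed FPKM (SD, n = 3) of both mitoferrins in control and 70.9 ± 5.32% in lactate libraries, so the more abundant mitoferrin differed between the groups (a 3.49-fold change of the ratio, exact two-sided permutation test, p = 0.1, adjusted p = 0.13).

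The glutathione carriers also parted. Slc25a39 was at 128, 147 and 141 CPM in control and 293, 304 and 265 CPM in lactate libraries. Its paralog Slc25a40 was at 3.52, 3.06 and 3.03 CPM in control and 1.50, 1.65 and 1.54 CPM in lactate libraries. Slc25a39 was higher and Slc25a40 lower in every lactate library. Slc25a39 changed by 1.05 ± 0.10 (edgeR adjusted p = 2.8e-05; 0.19 and not called with library totals, adjusted p = 0.08), and Slc25a40 fell by 1.04 ± 0.24 (adjusted p = 0.0043; −1.90 with library totals). Their log2 ratio went from 5.43 ± 0.27 to 7.56 ± 0.08 (SD, n = 3), a 4.37-fold change (exact two-sided permutation test, p = 0.1, adjusted p = 0.13).

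Slc25a38, which imports the glycine used in the first step of heme synthesis, rose alongside Slc25a37. It was at 12.0, 8.85 and 11.0 CPM in control and 33.8, 34.6 and 29.7 CPM in lactate libraries, without overlap. The log2 fold change was 1.62 ± 0.15 (edgeR adjusted p = 2.6e-05; 0.76, adjusted p = 0.0025, with library totals), and the call held in every setting tried.

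The largest rise of a member was that of Slc25a30 (kidney mitochondrial carrier protein), a relative of the uncoupling proteins, which let protons or anions back into the matrix. It was at 8.82, 8.49 and 8.27 CPM in control and 57.7, 52.5 and 61.2 CPM in lactate libraries. The control libraries lay within 1 CPM of each other and far below every lactate library. It rose by 2.74 ± 0.12 on the log2 scale, 6.70-fold (edgeR adjusted p = 1.4e-06), and by 1.89 with library totals. Slc25a14 (also called BMCP1) was low, at 1.72 ± 0.211 CPM in control and 2.76 ± 0.546 CPM in lactate libraries (SD, n = 3). Its call (log2 fold change 0.68 ± 0.27, edgeR adjusted p = 0.049) was lost with library totals (−0.18), upper-quartile factors (0.53), no filter (0.65) or the length trend removed (0.60), and without any 1 library other than lactate library 3 (adjusted p = 0.057 to 0.15). Slc25a27 (also called UCP4), known from brain, was at 0.813 ± 0.227 and 0.405 ± 0.0424 CPM, with a log2 fold change of −1.00 ± 0.42 that was not called (edgeR adjusted p = 0.064) but was called lower with library totals (−1.85) and with upper-quartile factors (−1.16).

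Of 9 carriers of amino acids in the table, 7 were tested, of which 2 were called higher (Slc25a38 and Slc25a12), 2 lower and 3 not called. The aspartate/glutamate carriers of the malate-aspartate shuttle, Slc25a12 (aralar) and Slc25a13 (citrin), moved apart. Slc25a12 was at 13.8, 14.3 and 13.4 CPM in control and 18.1, 16.5 and 20.1 CPM in lactate libraries, slightly higher without overlap. Slc25a13 was at 8.71, 5.50 and 7.17 CPM in control and 4.13, 3.39 and 4.19 CPM in lactate libraries, lower without overlap. Slc25a12 changed by 0.40 ± 0.13 (edgeR adjusted p = 0.024) and was at −0.45 and called lower with library totals (adjusted p = 0.033), and its call was lost with upper-quartile factors (0.24) and without any 1 of the control libraries (adjusted p = 0.056, 0.056 and 0.085). Slc25a13 fell by 0.87 ± 0.23 (adjusted p = 0.0086) and was at −1.72 with library totals. Within libraries the log2 ratio of Slc25a12 to Slc25a13 was 0.23, 0.94 and 0.46 in control and 1.70, 1.84 and 1.83 in lactate libraries, a 2.37-fold change (exact two-sided permutation test, p = 0.1, adjusted p = 0.13).

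Slc25a44, the importer of branched-chain amino acids, was at 5.47, 5.19 and 4.50 CPM in control and 2.40, 1.88 and 1.78 CPM in lactate libraries. Every lactate library lay below every control library. It fell by 1.32 ± 0.23 (edgeR adjusted p = 0.00091). The ornithine carrier of the urea cycle, Slc25a15, was at 13.2 ± 2.64 CPM in control and 11.8 ± 0.599 CPM in lactate libraries (SD, n = 3), with a log2 fold change of −0.16 ± 0.17 that was not called (adjusted p = 0.43) but was called lower with library totals (−1.02). Slc25a29, a carrier of basic amino acids, was at −0.25 ± 0.42 and not called (adjusted p = 0.62).

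The glutamate carrier Slc25a22 could not be read from its group mean. It had 542, 576 and 481 counts in control libraries and 437, 0 and 0 counts in lactate libraries 1, 2 and 3. Lactate library 1 lay above the controls in CPM, and lactate libraries 2 and 3 held no count. The log2 fold change was −0.76 ± 1.39 and not called (edgeR adjusted p = 0.65), and without lactate library 1 it was −11.75 (adjusted p = 4e-05). It was also called lower by limma-voom (−5.97, adjusted p = 0.010), by limma-trend on log2(FPKM + 1) (−2.12, adjusted p = 0.027) and by limma-trend on log2(FPKM + 0.1). A count of 0 in 1 library beside at least 400 in another of the same group was seen in 57 genes of the table, 26 of them among the lactate libraries, and in no other member. How the counting gave such values was not tested.

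Carriers of cofactors and nucleotides had 4 of 9 called higher, 2 lower and 3 not called. Slc25a32, which brings folate and the flavin cofactor FAD into mitochondria, was at 9.17, 10.2 and 8.42 CPM in control and 21.7, 21.3 and 23.5 CPM in lactate libraries. The groups did not overlap. It rose by 1.26 ± 0.14 (edgeR adjusted p = 6.3e-05; 0.40, adjusted p = 0.044, with library totals), and missed the threshold when limma-trend was run on FPKM, with 1 FPKM added before the log (0.33, adjusted p = 0.051) or 0.1 (0.38, adjusted p = 0.051).

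The pyrimidine nucleotide carriers Slc25a33 and Slc25a36, which supply mitochondrial DNA and RNA synthesis, were both called higher with TMM. Slc25a33 was at 16.2, 13.8 and 12.5 CPM in control and 32.9, 37.8 and 23.3 CPM in lactate libraries. Slc25a36 was at 8.84, 9.34 and 9.16 CPM in control and 21.7, 19.4 and 15.9 CPM in lactate libraries. In both genes lactate library 3 was the lowest of the lactate libraries and still above every control. They changed by 1.15 ± 0.19 and 1.06 ± 0.15 (edgeR adjusted p = 0.00085 and 0.00032), but with library totals they were at 0.27 and 0.19 and not called. Their ratio overlapped between the groups (−0.08 log2 units, exact two-sided permutation test, p = 0.6).

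Both inner membrane members linked to coenzyme A fell. Slc25a42, a carrier of coenzyme A and adenine nucleotides, was at 5.08, 4.98 and 5.64 CPM in control and 1.81, 0.941 and 1.61 CPM in lactate libraries. Slc25a16, which is also linked to coenzyme A, was at 23.7, 21.1 and 22.8 CPM in control and 11.1, 12.1 and 16.2 CPM in lactate libraries. Neither overlapped between groups. Slc25a42 fell by 1.84 ± 0.28 (edgeR adjusted p = 0.00044) and Slc25a16 by 0.78 ± 0.17 (adjusted p = 0.0031), and both calls held in every setting tried.

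The peroxisomal member Slc25a17, which carries coenzyme A, FAD and NAD, was at 27.7 ± 3.95 CPM in control and 38.8 ± 5.74 CPM in lactate libraries (SD, n = 3). Its call (log2 fold change 0.48 ± 0.15, edgeR adjusted p = 0.021) turned to lower with library totals (−0.38, adjusted p = 0.035) and was lost with upper-quartile factors (0.33), with the length trend removed (0.38) and without control library 1, control library 3 or lactate library 2 (adjusted p = 0.067, 0.055 and 0.069). The S-adenosylmethionine carrier Slc25a26 (−0.55 ± 0.34) and the NAD carrier Slc25a51 (−0.12 ± 0.21) were not called (edgeR adjusted p = 0.18 and 0.63). With library totals both Slc25a26 (−1.42) and Slc25a51 (−0.96) were called lower, and Slc25a26 also with the length trend removed (−0.89). Without lactate library 2, Slc25a26 was called lower (−0.92, adjusted p = 0.035).

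No carrier of di- and tricarboxylates was called higher in any setting tried. The oxoglutarate carrier Slc25a11 was at 52.8, 45.2 and 50.4 CPM in control and 50.3, 48.0 and 37.9 CPM in lactate libraries, and the groups overlapped. The dicarboxylate carrier Slc25a10, which exchanges malate or succinate for phosphate, was at 17.7, 14.2 and 14.8 CPM in control and 10.7, 11.9 and 11.0 CPM in lactate libraries, lower without overlap. Slc25a10 fell by 0.47 ± 0.14 (edgeR adjusted p = 0.018), a call lost without control library 1 or lactate library 1 (adjusted p = 0.059 and 0.061). Slc25a11 was at −0.12 ± 0.13 and not called (adjusted p = 0.43), but was called lower both with library totals (−0.99) and after removal of the length trend (−0.41).

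The citrate carrier Slc25a1, which exports citrate for fatty acid and sterol synthesis, was at 38.5 ± 1.84 and 41.4 ± 5.13 CPM (SD, n = 3), with a log2 fold change of 0.11 ± 0.12 that was not called (edgeR adjusted p = 0.46) and turned to −0.76, called lower, with library totals. Slc25a21, the oxodicarboxylate carrier, was under 1 CPM in every library and not called (0.09 ± 0.41, adjusted p = 0.86). The class held 8.83% ± 0.245 of the summed Slc25 FPKM in control libraries (SD, n = 3) and 4.71% ± 0.358 in lactate libraries. The log2 ratio of Slc25a11 to Slc25a10 went from 2.34 ± 0.10 to 2.67 ± 0.23 without overlap (exact two-sided permutation test, p = 0.1, adjusted p = 0.13), and that of Slc25a1 to Slc25a11 overlapped (p = 0.2 in the same exact permutation test).

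The carnitine/acylcarnitine carrier Slc25a20, the gate for long-chain fatty acids into the matrix, was at 24.4 ± 3.82 CPM in control and 31.0 ± 1.22 CPM in lactate libraries (SD, n = 3), with no overlap. It narrowly missed the threshold (0.35 ± 0.14, edgeR adjusted p = 0.052), was called higher with RLE factors (0.39), DESeq2 (0.39), limma-voom (0.36) and without control library 1 (0.46) or lactate library 3 (0.40), and was called lower with library totals (−0.51). Its share of the summed Slc25 FPKM was 1.68% ± 0.181 in control and 1.22% ± 0.0191 in lactate libraries.

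Slc25a46, an outer membrane member known for its part in mitochondrial shape and fission, was at 34.1, 33.6 and 28.5 CPM in control and 16.8, 13.5 and 23.1 CPM in lactate libraries. The lactate libraries were lower without overlap, library 3 less so. It fell by 0.85 ± 0.20 (edgeR adjusted p = 0.0047; −1.69 with library totals), and the call held in every setting tried.

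Of 7 members whose substrate is unknown or disputed, 3 were tested, and 2 were called lower. Slc25a45 was at 2.10, 1.57 and 1.70 CPM in control and 0.635, 0.753 and 0.489 CPM in lactate libraries. It fell by 1.52 ± 0.34 (edgeR adjusted p = 0.0037) without overlap. Slc25a43, with 34, 51 and 40 counts in control and 4, 0 and 10 counts in lactate libraries, fell by 2.18 ± 0.72 (adjusted p = 0.026), a call lost without any 1 of the control libraries or lactate library 1 (adjusted p = 0.059 to 0.079). Slc25a35 was at −0.30 ± 0.31 and not called (adjusted p = 0.42), but was called lower with library totals (−1.15).

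The 6 members under the filter on low counts had at most 31 counts in any library. Slc25a2, an ornithine carrier, had 7, 7 and 6 control and 31, 10 and 8 lactate counts. The glutamate carrier Slc25a18 had no control count, and 6 counts in lactate library 1 alone. Slc25a34 had 7, 4 and 0 control and 9, 3 and 8 lactate counts, and Slc25a47 15, 2 and 6 and 0, 0 and 8. Slc25a48 and Slc25a54 had 4 and 6 counts over the control group and 0 over the lactate group. Where a library has no count, up to 3 counts (0.0581 to 0.141 CPM, by library) cannot be told from 0, for counting error only.

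**Figure D3:**
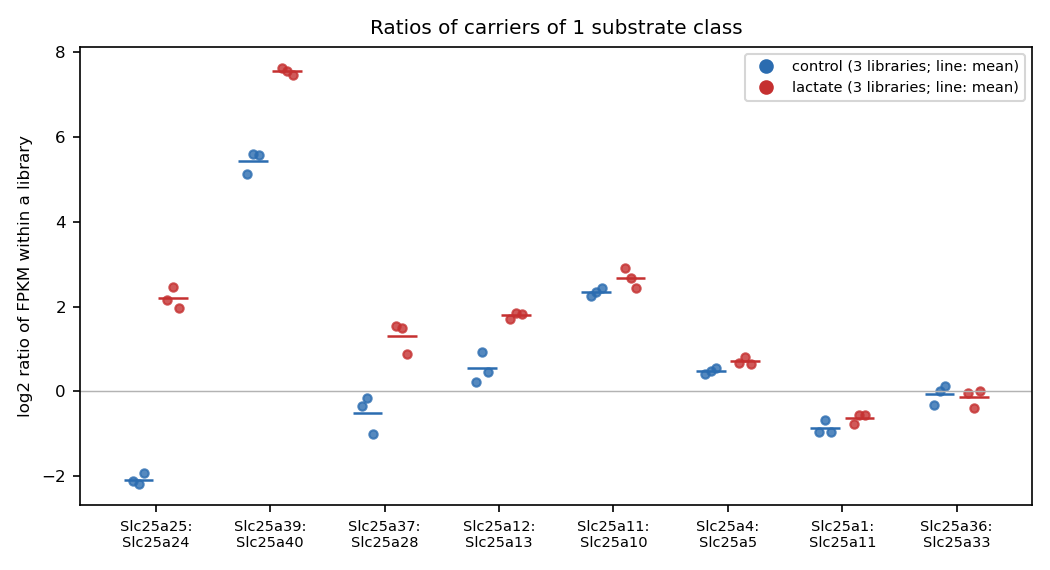
Log2 ratio of FPKM within each library for 8 pairs of Slc25 members of 1 substrate class (points are the 3 control and 3 lactate libraries, lines the group means). The ratio of Slc25a25 to Slc25a24 crosses 0 between the groups, as does that of Slc25a37 to Slc25a28, and Slc25a36 to Slc25a33 and Slc25a1 to Slc25a11 overlap.

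Of the 8 ratios computed, 6 did not overlap between the groups. Of all tested genes 72.2% did not overlap in CPM, and no such share was computed for ratios of other gene pairs. The pairs were chosen with earlier results of these data known. Each of the 6 ratios without overlap had p = 0.1 in the exact two-sided permutation test, so none could reach 0.05. The sizes ranged from 1.18-fold for Slc25a4 to Slc25a5 to 19.5-fold for Slc25a25 to Slc25a24.

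More abundant members had higher fold changes, as did more abundant genes in general. Across the 37 tested members, the log2 fold change correlated with log2 mean CPM at Pearson r = 0.54, and across all 13747 tested genes at 0.30, a description across genes of the same 6 libraries. Tested genes were split by mean level into 5 bins of equal size. Of the genes in the highest bin 60.8% were called higher and 20% lower, and all 4 members there (Slc25a3, Slc25a4, Slc25a5 and Slc25a39) were called higher. In bin 2 from the lowest level, 19.1% of genes were called higher and 45.3% lower. There 1 of 6 members was higher and 4 were lower. Fold changes also fell with transcript length, at r = −0.34 across members and −0.23 across all tested genes. Slc25a25 and Slc25a24 both have long transcripts, with relative lengths of 3231 and 3652 bases from the ratio of counts to FPKM, and their fold changes after removal of that trend were 2.57 and −1.67 on the log2 scale. The part of level and length in the results was not tested beyond the removal of the length trend.

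**Figure D4:**
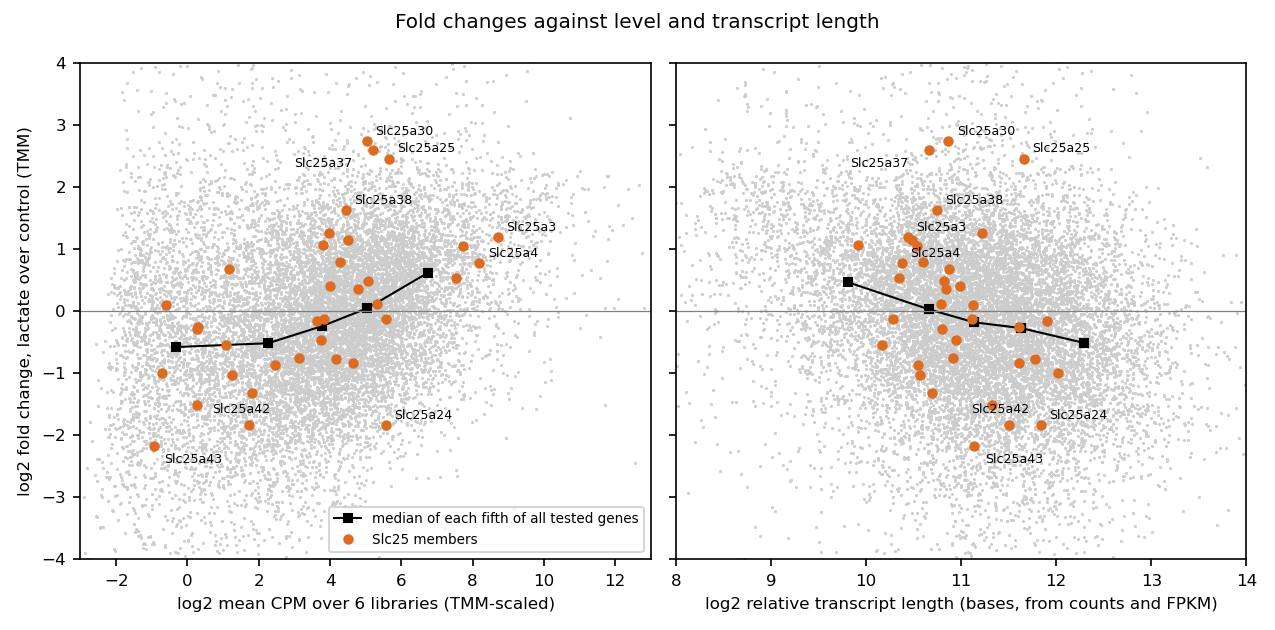
Log2 fold change with TMM scaling against log2 mean CPM (left) and log2 relative transcript length (right) for all tested genes (grey; genes outside the axes are not drawn) and for the tested Slc25 members, all but 1 (orange), with the median of each of 5 equal bins of all tested genes (black squares). The squares rise with level and fall with length, and Slc25a30, Slc25a37 and Slc25a25 lie above them while Slc25a24 and Slc25a42 lie below.

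Other genes of mitochondrial transport were counted in the same test. Of all tested genes 31.4% were called higher and 34.6% lower with TMM, and 12.5% and 61.8% with library totals. Of the carrier family members under other symbols, Ucp2 (0.93 ± 0.23, edgeR adjusted p = 0.0071), Mtch1 (0.99 ± 0.13, adjusted p = 0.00021) and Mtch2 (0.38 ± 0.11, adjusted p = 0.013) were all called higher with TMM, and with library totals Ucp2 (0.06) and Mtch1 (0.13) were not called and Mtch2 (−0.47) was called lower. Ucp1 was under the filter. Of 16 inner membrane transporters of other families, 2 were called higher, 8 lower and 6 not called with TMM, and 1 higher, 13 lower and 2 not called with library totals. Mpc1, a subunit of the mitochondrial pyruvate carrier, rose by 1.25 ± 0.10 (adjusted p = 1.4e-05; 0.39 with library totals), while Abcb10, an ATP-binding cassette transporter linked to heme synthesis, fell by 2.02 ± 0.20 (adjusted p = 4.1e-05) and Sfxn5, a sideroflexin, by 2.14 ± 0.37 (adjusted p = 0.00099).

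Among the outer membrane channels, Vdac1 rose by 1.18 ± 0.09 (edgeR adjusted p = 1.1e-05; 0.32 with library totals), Vdac2 changed by 0.49 ± 0.10 (adjusted p = 0.0029; −0.37, called lower, with library totals) and Vdac3 fell by 0.35 ± 0.12 (adjusted p = 0.028). Of 10 genes that bring newly made carriers to the inner membrane, 5 were called higher, 1 lower and 4 not called with TMM. Library totals gave 2 higher and 4 lower, and removal of the length trend 3 higher and 4 lower. Of all tested genes 31.4% were higher and 34.6% lower with TMM, 12.5% and 61.8% with library totals, and 28.7% and 35.5% with the length trend removed. Timm29 rose by 2.07 ± 0.15 (adjusted p = 7.4e-06) and Timm13 by 1.79 ± 0.14 (adjusted p = 9.8e-06), both also called with library totals, and Timm10 changed by 1.08 ± 0.21 (adjusted p = 0.0021; 0.21, not called, with library totals). Chosen after their values were seen, Timm8a1 was called higher with TMM (0.50), not called with library totals (−0.36) and called lower with the length trend removed (−0.61), Timm10b (0.77) lost its call in both of those settings (−0.10 and 0.04), and Agk was the 1 gene called lower with TMM (−0.56).

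The authors' deposited table, which gives its own log2 fold changes and FDR values, lists 13 of the 43 members as higher and 10 as lower at an FDR under 0.05, against 23.6% and 28.0% of its 17273 genes. In the authors' deposited table Slc25a30 has a log2 fold change of 2.71, Slc25a37 of 2.56, Slc25a25 of 2.42 and Slc25a24 of −1.87. That table also lists Slc25a2 as higher, at 2.30 with an FDR of 0.0096, a gene under the filter used here.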

How the data were processed

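The authors deposited a table with raw read counts per gene and FPKM for each library, and their own comparison as log2 fold changes, p-values and FDR, per the file headers. A second deposited table, a selection of the same genes, was not used. Per the submitters' processing notes the builds were GRCm38 and mm10, which are mouse builds, while the gene names are those of rat. What aligned and counted the reads, on which annotation and strand, is not given in the sources used here, and no coordinates of the files are printed. Promoter windows, names and pseudogenes come from RefSeq for GRCr8, to which all 43 member symbols matched.

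The deposited counts entered edgeR 4.0.16 (R 4.3.3, quasi-likelihood F test) for all genes that filterByExpr kept. TMM factors were used, the model held the group alone, and p-values were adjusted by Benjamini-Hochberg over all tested genes. SE is the size of the log2 fold change divided by the square root of the F statistic. Ratios and shares were tested with exact two-sided permutation tests (scipy 1.17.1). Libraries held 30291357 to 38989574 counts, and both this depth and the 3 libraries a group limit precision.

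The settings varied were the scaling (RLE, upper-quartile, library totals), the filter (none, or 1 CPM in 3 libraries), the tool (DESeq2 1.42.0, or limma 3.58.1 as limma-voom on counts and limma-trend on FPKM with 1 or 0.1 added before log2), a replicate block, removal of a loess trend on relative transcript length (taken from counts and FPKM, for 100% of tested genes), and each library left out in turn. On simulated counts of 13480 genes with 100 genes changed 2-fold and 100 changed 4-fold, edgeR called 60 and 95 of them in the right direction, and 12 unchanged genes. The changed genes were few and had a mean of at least 1 CPM, while 66.0% of tested genes were called in the data. The simulation therefore cannot show how TMM scaling behaves when most genes differ. Members, substrate classes, ratio pairs, markers and related genes were chosen with earlier results of these data known. The naming rule gives values in every library for called members with mean CPM of at least 1, the 8 that rose most and the 8 that fell most, the 4 with the highest control FPKM, and both members of each ratio that did not overlap. For related genes it names up to 3 called genes of each list with the smallest p. Other members are named with their values whatever their result, except 1 that is counted but not reported here.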

Additional observations from a re-analysis of the deposited data

How the results depend on the processing

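With library totals 1722 genes were called higher and 8492 lower, with 6 and 21 members, and the members' median was −0.77. With limma-trend on log2(FPKM + 1) there were 1781 and 8759 genes, 5 and 23 members and a median of −0.42, and on log2(FPKM + 0.1) there were 1770 and 8737 genes, 5 and 23 members and a median of −0.77. In these 3 settings the same members turned from higher to lower: with library totals Slc25a21 was at −0.77, Slc25a1 −0.76, Slc25a20 −0.51, Slc25a28 −0.057, Slc25a17 −0.38, Slc25a14 −0.18, Slc25a12 −0.45, Slc25a5 −0.33 and Slc25a4 −0.10. With FPKM + 1 they were, in that order, at −0.18, −0.74, −0.48, −0.065, −0.37, −0.11, −0.42, −0.33 and −0.10, and with FPKM + 0.1 at −0.56, −0.77, −0.51, −0.070, −0.39, −0.18, −0.47, −0.34 and −0.10. FPKM are scaled to library totals, so these 3 settings share their scaling. Among members that were not called, Slc25a21 (−0.064) and Slc25a1 (−0.048) turned with upper-quartile factors, and Slc25a1 (−0.015) and Slc25a15 (0.020) with the length trend removed. Over the libraries left out in turn, Slc25a21 ranged from −0.054 (without control library 2) to 0.33, Slc25a51 from −0.30 to 0.078 (without lactate library 2), Slc25a29 from −0.62 to 0.080 (without lactate library 1), Slc25a15 from −0.28 to 0.0063 (without control library 1) and Slc25a11 from −0.19 to 0.018 (without lactate library 3). The log2 difference of the Slc25 share of counts went from −0.10 to 0.14 when the 20 most abundant genes were left out of the total. The calls of 5 of 15 higher members (Slc25a25, Slc25a3, Slc25a37, Slc25a30 and Slc25a38) and of 8 of 10 lower members (all but Slc25a43 and Slc25a10) held in every setting, each library left out in turn included. The labels number the libraries of both groups. Deviations from the group mean correlated weakly in same-numbered libraries (r = 0.01, 0.04 and 0.08) and from −0.11 to 0.07 in the other pairs. These values cannot show if same-numbered libraries share a culture or animal, which the labels do not say. With a replicate block 4190 genes were called higher and 4624 lower, with 15 and 10 members, Slc25a20 (0.36) taking the place of Slc25a14. With 3 libraries a group, no exact permutation test could go below 0.1, and the 6 members with few counts were limited by depth.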
